A study of Homo sapiens with 30 samples.

Results

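The zinc finger (ZNF) gene starts are the transcription start regions of protein-coding genes whose symbol is ZNF followed by a number and an optional letter. They make up 423 of the 16009 start regions in the deposited table, and 209 of them lie on chromosome 19 and 214 on other chromosomes. GENCODE 44 annotates 508 such genes, 246 of them on chromosome 19. The cells were MEL624, a human melanoma line, and all IPs used here were made with antibody 4. The 12 libraries form 4 groups of 3, namely immunoprecipitations (IPs) from cells with a PCIF1 knockout (KO), IPs from control cells, KO inputs and control inputs. Control cells were wild type for PCIF1 and carried a random guide RNA, and no further allele or treatment is given. A single clonal KO line is named only for the first stage, and the labels do not say whether the 3 KO samples used here come from separate clones, so that KO and clone cannot be told apart, and the p-values then measure only the spread between these samples. The 18 first-stage libraries of the series, which compared antibodies, were not analysed here.

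PCIF1 is the enzyme that adds a methyl group to an adenosine standing right after the mRNA cap, giving the cap-adjacent base m6Am. In the assay used here, m6Am-Exo-Seq, an exonuclease removes uncapped fragments, and an antibody raised against m6A, which also binds m6Am, collects methylated 5′ ends from the capped fragments that remain. Human ZNF genes mostly encode DNA-binding proteins with arrays of C2H2 fingers, and many also carry a KRAB domain that recruits the corepressor TRIM28 and heterochromatin enzymes to retroelements and other targets. They arose by repeated duplication, and chromosome 19 holds the largest clusters, so that neighbours often share promoter sequence.

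Reads behind the table numbered 1753164 to 2177874 in the KO IPs, 4035815 to 4625190 in the control IPs, 2836120 to 3544669 in the KO inputs and 3232562 to 4094070 in the control inputs. The KO IPs were the shallowest libraries, with a median of 8 reads per chromosome 19 member and library, against 17 in the control IPs and 18 in each input group. PCIF1 itself gave 35.3, 40.9 and 28.6 CPM (reads scaled to a common library total, as deposited) in KO IPs, 30.04, 23.6 and 25.9 CPM in the control IPs, 70.3, 77.9 and 76.98 CPM in KO inputs and 57.8, 52.5 and 49.3 CPM in control inputs. Reads at a gene's start need not cover the edited site, so the labels are not tested by these values. Of 12 melanocyte lineage markers, 3 were measured (PAX3, MITF and RAB27A), and none of the keratinocyte, fibroblast, leukocyte or endothelial markers was. Centring each library on 81 ribosomal protein mRNAs in place of the deposited scaling adds 0.57 to every log2 enrichment in KO cells and 1.12 to every one in control cells. It takes 0.55 from their difference (-0.55) and adds 0.05 to every input change. Every direction below holds relative to the deposited scaling unless both are given.

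The start sequences show what the members share and where they differ. Each window below runs from 30 bases before the annotated start to 19 bases after it, in hg38 and on the gene's own strand, and the capital marks the first base of the GENCODE 44 canonical transcript. The first set comes from the chromosome 19 run of 30 members from ZNF101 to ZNF254, where most starts are a G inside or near the letters CTTTGTCTC, and ZNF101 is shown as one of the 8 members that start with A.
ZNF101 (chr19:19668809-19668858, plus strand): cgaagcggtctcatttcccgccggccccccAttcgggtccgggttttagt
ZNF486 (chr19:20167184-20167233, plus strand): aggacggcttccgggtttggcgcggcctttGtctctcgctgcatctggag
ZNF85 (chr19:20923221-20923270, plus strand): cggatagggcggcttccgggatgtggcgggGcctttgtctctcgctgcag
ZNF100 (chr19:21767560-21767609, minus strand): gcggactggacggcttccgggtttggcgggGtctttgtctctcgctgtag
ZNF43 (chr19:21836163-21836212, minus strand): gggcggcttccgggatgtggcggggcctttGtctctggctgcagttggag
ZNF91 (chr19:23395452-23395501, minus strand): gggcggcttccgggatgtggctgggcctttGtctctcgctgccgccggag
The second set comes from the run of 33 members from ZNF175 to ZNF331, in which 21 members start with A. ZNF28 and ZNF468 differ at 2 of the first 50 bases of their transcripts.
ZNF480 (chr19:52297139-52297188, plus strand): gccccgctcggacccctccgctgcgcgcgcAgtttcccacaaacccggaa
ZNF616 (chr19:52139919-52139968, minus strand): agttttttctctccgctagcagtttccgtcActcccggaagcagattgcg
ZNF28 (chr19:52821614-52821663, minus strand): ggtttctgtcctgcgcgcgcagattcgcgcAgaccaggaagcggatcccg
ZNF468 (chr19:52857600-52857649, minus strand): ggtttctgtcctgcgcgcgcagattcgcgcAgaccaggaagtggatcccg
The next pair are neighbours of the run from ZNF653 to ZNF791 that face away from each other, with starts 107 bases apart.
ZNF490 (chr19:12610794-12610843, minus strand): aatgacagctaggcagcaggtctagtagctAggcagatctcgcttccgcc
ZNF791 (chr19:12610890-12610939, plus strand): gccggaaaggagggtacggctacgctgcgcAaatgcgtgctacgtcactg
The last set lies on other chromosomes and holds an A start among the most enriched members, the A start of ZNF281, and the G start of ZNF511, one of the most depleted.
ZNF407 (chr18:74597840-74597889, plus strand): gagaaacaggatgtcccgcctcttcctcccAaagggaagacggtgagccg
ZNF281 (chr1:200410017-200410066, minus strand): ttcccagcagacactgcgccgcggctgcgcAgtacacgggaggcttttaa
ZNF511 (chr10:133308884-133308933, plus strand): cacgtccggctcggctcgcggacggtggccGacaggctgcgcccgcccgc

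Among the members, 184 start with A, 193 with G, 45 with C and 1 with T. On chromosome 19 the shares were 46.9% A, 44.98% G and 8.13% C, against 46.2% A, 41.9% G and 11.4% C for the 11624 other coding genes of the table. Motifs were counted on both strands in 300 bases, 250 before and 50 from the start on, and were chosen after the sequences had been seen. The ETS-type core CCGGAAG stood in 46.4% of chromosome 19 members, against 35.0% of members elsewhere, 19.5% of the other coding genes of the table and 14.1% of all 20046 coding starts in GENCODE 44. CTTTGTCTC stood in 19 of the 30 members from ZNF101 to ZNF254 (63.3%), against 0.539% of all coding starts, and CCAAT stood in all 30, against 36.1%. The ETS-type core also stood in 18 of the 33 members from ZNF175 to ZNF331 (54.5%). A match of letters describes the window and is not a bound site.

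In the proteins, 132 of 209 chromosome 19 members and 76 of 214 members elsewhere held the letters of a KRAB A box, and a median of 12 and 9 C2H2 fingers was found. A protein without those letters may still carry a divergent KRAB domain. Reads of near-identical neighbours are uncertain, because how multiply mapping reads were counted is not given in the sources used here. By the first 50 bases, compared position by position, 6 members, all on chromosome 19, shared at least 45 with another member. They were ZNF28 with ZNF468, ZNF417 with ZNF587 and ZNF611 with ZNF808. Like sequences whose starts are shifted by a few bases, as in the printed windows of ZNF85 and ZNF43, are missed this way. In the run from ZNF101 to ZNF254, ZNF93, ZNF486, ZNF85, ZNF431, ZNF724 and ZNF726 shared 44 with another member. Uncertainty from multiple mapping may therefore reach beyond the 6 members that shared at least 45. A further limit is position, since 291 of 423 members have no other start within 200 bases and do not start inside another gene on the same strand. Reads of the remaining members are uncertain. Besides members marked below, these include ZNF567, ZNF628, ZNF71, ZNF470, ZNF580 and ZNF544 on chromosome 19. Elsewhere they include ZNF668, ZNF655, ZNF18, ZNF594 and ZNF768.

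ZNF starts were a small and mostly weakly covered part of each library. Members on chromosome 19 took 0.179% ± 0.00164 of reads in KO IPs, 0.175% ± 0.00101 in control IPs, 0.208% ± 0.00566 in KO inputs and 0.185% ± 0.00294 in control inputs (SD, n = 3 each). Members elsewhere took 0.395% ± 0.00186, 0.354% ± 0.00636, 0.443% ± 0.0225 and 0.399% ± 0.00163 of reads in these groups. The median over members of the mean log2 CPM was 2.16 on chromosome 19 and 2.90 elsewhere, against 4.53 for other coding genes. In the KO IPs, 92 chromosome 19 members had under 10 reads in every library. Fold changes of such members on the log2 scale are understated by the count added before the logarithm.

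Of the 5 most abundant members in the inputs on each side, only ZNF544 on chromosome 19 held the letters of a KRAB A box. ZNF598, a ubiquitin ligase that marks collided ribosomes (chromosome 16, 1997654 to 2009821), gave 382, 346 and 308 CPM in KO IPs, 283, 213 and 233 CPM in the control IPs, 512, 447 and 508 CPM in KO inputs and 389.6, 349.6 and 383 CPM in control inputs. The KO inputs lay above the control inputs without overlap, and the IPs of each genotype lay below its inputs. Its input change was 0.39 ± 0.11 on the log2 scale (limma, adjusted p = 0.0245). Its enrichment was -0.51 ± 0.11 in KO cells and -0.63 ± 0.11 in control cells, and both turn positive under centring on ribosomal protein mRNAs. ZNF706, ZNF496, ZNF593 and ZNF768 followed outside chromosome 19, and ZNF580, ZNF581, ZNF544, ZNF358 and ZNF787 led on chromosome 19. ZNF787 was higher in its IPs than its inputs in both genotypes, by 0.88 ± 0.12 in KO cells and 0.80 ± 0.12 in control cells.

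**Figure D1:**
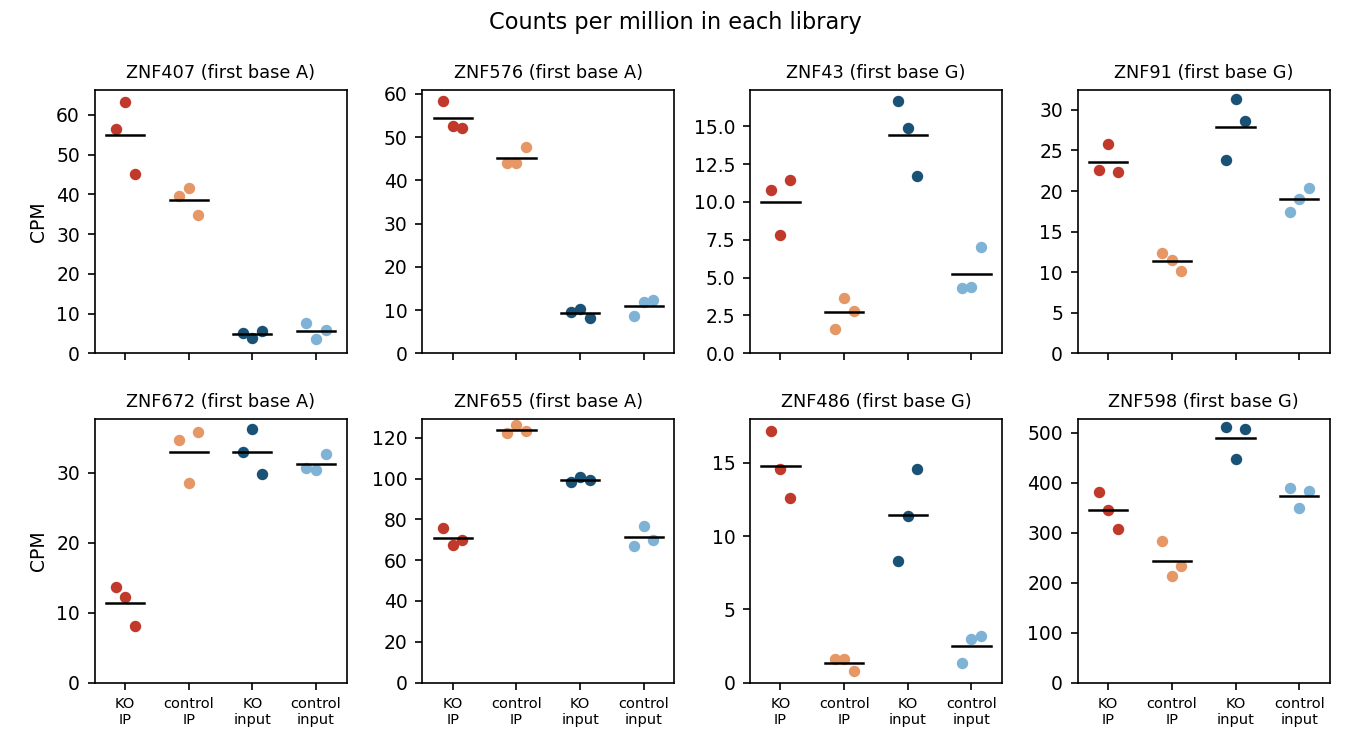
CPM in each library for 8 members, with KO IP, control IP, KO input and control input from left to right on each x axis, points for single libraries and a bar for the mean of 3. ZNF407 and ZNF576 stand high in both kinds of IP, ZNF672 and ZNF655 are low in the KO IPs against the control IPs, and ZNF43, ZNF91 and ZNF486 are higher in KO than in control libraries.

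The first question is which ZNF 5′ ends the antibody collected above input in each genotype. In KO cells, 29 of 209 chromosome 19 members were higher and 67 lower in the IP, with a median log2 enrichment of -0.36, while the ribosomal protein centring gave 56 higher and 32 lower and a median of 0.21. Over all genes of the table, 28.4% were called higher and 31.0% lower in KO cells, 59.4% in all. In control cells, 33 chromosome 19 members were higher and 48 lower, with a median of -0.01, while the same centring gave 114 higher and 6 lower and a median of 1.11. Over all genes, 27.7% were called higher and 28.2% lower in control cells, 55.9% in all. The IP and input values did not overlap for 106 of the 209 members in KO cells and 111 in control cells, against 61.3% and 66.5% of all genes. Elsewhere, 48 of 214 members were higher and 73 lower in KO cells (median -0.36), and 47 were higher and 67 lower in control cells (median -0.15). The centring turned these splits to 70 and 37 in KO cells and 112 and 12 in control cells.

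Calls were shared between genotypes for part of each list. On chromosome 19, 17 members were called higher in both genotypes, which is 58.6% of those higher in KO cells and 51.5% of those higher in control cells. Another 34 were called lower in both, 50.7% of those lower in KO cells and 70.8% of those lower in control cells. Elsewhere, 33 members were higher in both and 48 lower in both. Opposite calls were made for 3 members, 1 on chromosome 19 and 2 elsewhere. Shared and opposite calls were not counted over all genes, so these shares cannot be read as a trait of ZNF starts.

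ZNF407, on chromosome 18 (74597870 to 75065671), had the largest enrichment of the named members in both genotypes. It gave 56.4, 63.3 and 45.2 CPM in KO IPs, 39.6, 41.7 and 34.8 CPM in the control IPs, 5.16, 3.79 and 5.52 CPM in KO inputs and 7.52, 3.67 and 5.84 CPM in control inputs. Every IP library lay above every input, and the KO IPs lay above the control IPs. Its log2 enrichment was 3.49 ± 0.23 in KO cells (limma, adjusted p = 1.4e-10) and 2.81 ± 0.23 in control cells (adjusted p = 3.46e-09), while 0.69 ± 0.33 for the difference missed the threshold (adjusted p = 0.132). An antisense gene, ZNF407-AS1, starts within 200 bases, so its reads are uncertain. The stem cell transcription factor gene ZNF281 (1.40 in KO and 2.12 in control cells), ZNF668 (2.16 and 2.19) and ZNF654 (1.73 and 1.85) were also higher in IPs of both genotypes, and all start with A. Reads of ZNF668 are uncertain too, since ZNF646 is a neighbouring gene at its start. ZNF608, which starts with G, was enriched by 2.75 ± 0.40 in KO cells, from few input reads, and ZNF438 by 1.999 ± 0.27.

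Among chromosome 19 members with a mean log2 CPM of at least 2, the largest enrichment belonged to ZNF576 in KO cells and ZNF526 in control cells. ZNF576 (chromosome 19, 43596392 to 43601157) gave 58.4, 52.6 and 52.1 CPM in KO IPs, 44.02, 44.1 and 47.7 CPM in the control IPs, 9.47, 10.3 and 8.12 CPM in KO inputs and 8.599, 11.9 and 12.3 CPM in control inputs. The IPs stood apart from the inputs in both genotypes, with a log2 enrichment of 2.54 ± 0.16 in KO cells (adjusted p = 7.05e-11) and 2.06 ± 0.16 in control cells (adjusted p = 1.56e-09). ZNF526 had nearly equal values in both genotypes, 2.14 in KO and 2.13 in control cells. ZNF567, a KRAB gene, had 1.96 and 2.08, and ZNF507 had 2.39 ± 0.17 in KO cells. ZNF461 was enriched by 1.99 ± 0.26 in control cells. All 5 of these members start with A.

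Of the 67 chromosome 19 members lower in KO IPs, 38 start with G and 8 with C, and of the 48 lower in control IPs, 35 start with G and 8 with C. ZNF511 (chromosome 10, 133308914 to 133313162) gave 7.36, 8.77 and 9.16 CPM in KO IPs, 15.8, 12.3 and 10.7 CPM in the control IPs, 50.8, 57.9 and 62.7 CPM in KO inputs and 52.7, 65.8 and 56.04 CPM in control inputs. All inputs lay above all IPs, with a log2 enrichment of -2.75 ± 0.17 in KO cells and -2.17 ± 0.17 in control cells (adjusted p = 3.43e-11 and 1.04e-09), and TUBGCP2 starts within 200 bases on the other strand. In control cells ZNF7 (-2.65 ± 0.37), ZNF322 (-2.05 ± 0.25) and ZNF70 (-1.97 ± 0.32) were the other named members lower elsewhere, all with a G start. On chromosome 19 the KRAB genes ZNF85 (-2.25 ± 0.47) and ZNF738 (-1.95 ± 0.29), together with ZNF568 (-1.57 ± 0.29, a call lost under ribosomal protein centring), start with G, and ZNF446 (-2.15 ± 0.31) with C. In KO cells ZNF627 had the lowest value of the named members on chromosome 19 (-3.31 ± 0.96), where 1 KO IP held 0 reads, and its call was lost when only the KO libraries were fitted (adjusted p = 0.0928). ZNF562 (-1.93 ± 0.36), ZNF121 (-1.85 ± 0.36) and ZNF554 (-1.80 ± 0.32), which start with A, were the next lowest named there. ZNF568 starts inside another gene of its strand, as ZNF664 does elsewhere. Elsewhere ZNF318 (-2.48 ± 0.28), ZNF354A (-1.95 ± 0.48) and ZNF664 (-1.94 ± 0.24) were low in KO IPs.

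Median enrichment was higher for A starts than for G starts in both genotypes. On chromosome 19, the 98 A starts had 22 members higher and 21 lower in KO cells (median 0.11), and the 94 G starts had 6 higher and 38 lower (median -0.70). In control cells the A starts had 25 higher and 5 lower (median 0.33), and the G starts 8 higher and 35 lower (median -0.62). The ribosomal protein centring gave medians of 0.69 for A and -0.13 for G starts in KO cells and 1.45 and 0.50 in control cells, so that the direction of the G starts in control cells turns. A gap between medians does not depend on the scaling of the libraries. The gap A minus G on chromosome 19 was 0.82 in KO cells and 0.95 in control cells on the log2 scale. Elsewhere it was 0.18 in KO cells and 0.77 in control cells, and for other coding genes it was 0.19 in KO cells and 0.48 in control cells.

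**Figure D2:**
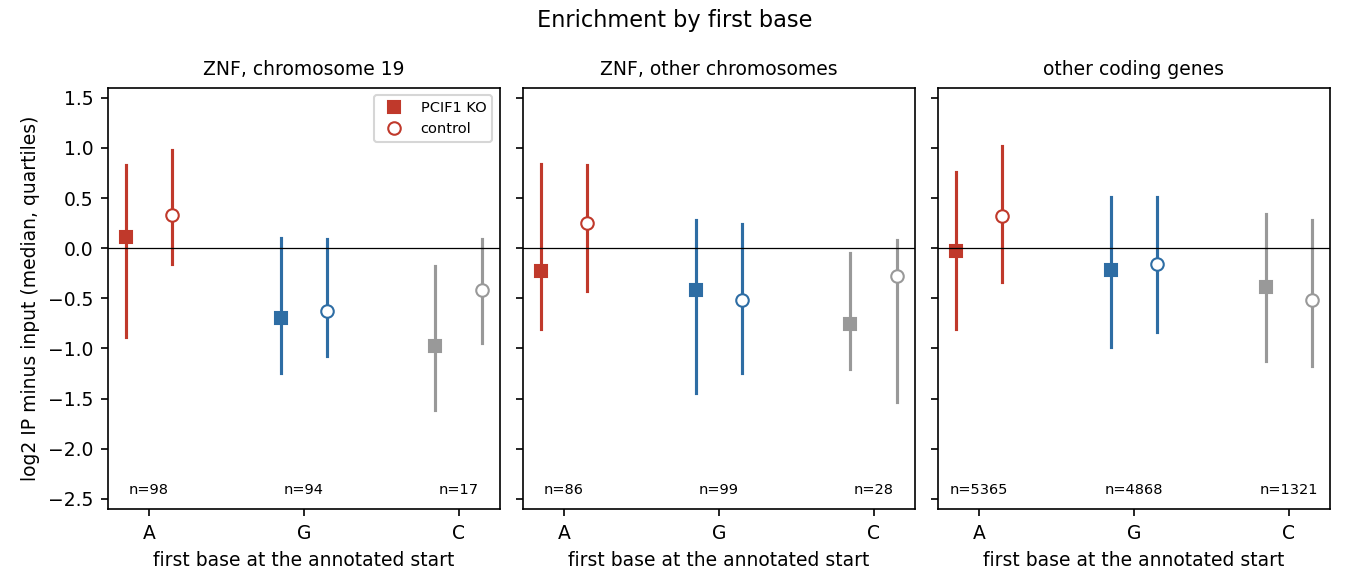
Median (marker) and quartiles (line) of the log2 difference IP minus input on the y axis, by first base A, G or C on the x axis, for ZNF members of chromosome 19, ZNF members of other chromosomes and other coding genes, with KO cells (filled squares) left of control cells (open circles). A starts lie above G starts in every panel, by 0.82 in KO cells and 0.95 in control cells on chromosome 19.

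Across libraries, the gap over all members was 0.60, 0.46 and 0.42 in the KO IPs, each set against the mean of the KO inputs. It was 0.83, 0.96 and 0.79 in the control IPs, and the 3 KO values lay below the 3 control values. The choice of start matters to its size. With the first base taken at the 5′ end of the gene record, the gap was 0.25 in KO cells and 0.38 in control cells, and the base was the same by both definitions for 266 of 423 members. With RefSeq starts it was 0.52 in KO cells and 0.84 in control cells. Among members with no neighbouring start, it was 0.20 in KO cells and 0.68 in control cells.

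Along chromosome 19 the members fall into 14 runs, in which neighbouring starts lie less than 1 Mb apart, and these runs differed in enrichment. The run from ZNF101 to ZNF254 (starts from 19668839 to 24087187 in hg38) has 30 members, 27 with a KRAB A box and 21 with a G start. None was higher in the IP of either genotype, and 13 were lower in KO cells (median -0.76) and 16 in control cells (median -0.92). Shares over all genes were 28.4% higher and 31.0% lower in KO cells, and 27.7% and 28.2% in control cells. For this run the ribosomal protein centring gave 2 higher and 6 lower in KO cells (median -0.19). In control cells it gave 8 higher and 4 lower (median 0.20). The median over its members was -0.76, -0.79 and -0.84 in the 3 KO IPs and -0.78, -0.90 and -0.91 in the 3 control IPs. Over all 31 members whose window holds CTTTGTCTC, 0 were higher and 14 lower in KO cells and 0 higher and 21 lower in control cells, with median log2 enrichments of -1.001 and -1.22. Of the 31, 26 start with G, and their medians were -0.82 in KO cells and -1.33 in control cells, against -0.54 and -0.57 for all 193 G starts, which include them. No test of that difference was made. ZNF100, a KRAB gene of this run, gave 5.395, 3.41 and 4.58 CPM in KO IPs, 1.16, 0.262 and 0.508 CPM in the control IPs, 8.03, 8.93 and 7.15 CPM in KO inputs and 5.91, 5.04 and 4.38 CPM in control inputs. Its control IPs, with 5, 1 and 2 reads, lay below all other libraries, and its enrichment was -0.86 ± 0.43 in KO cells (adjusted p = 0.0946) and -3.04 ± 0.43 in control cells (adjusted p = 5.19e-06).

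**Figure D3:**
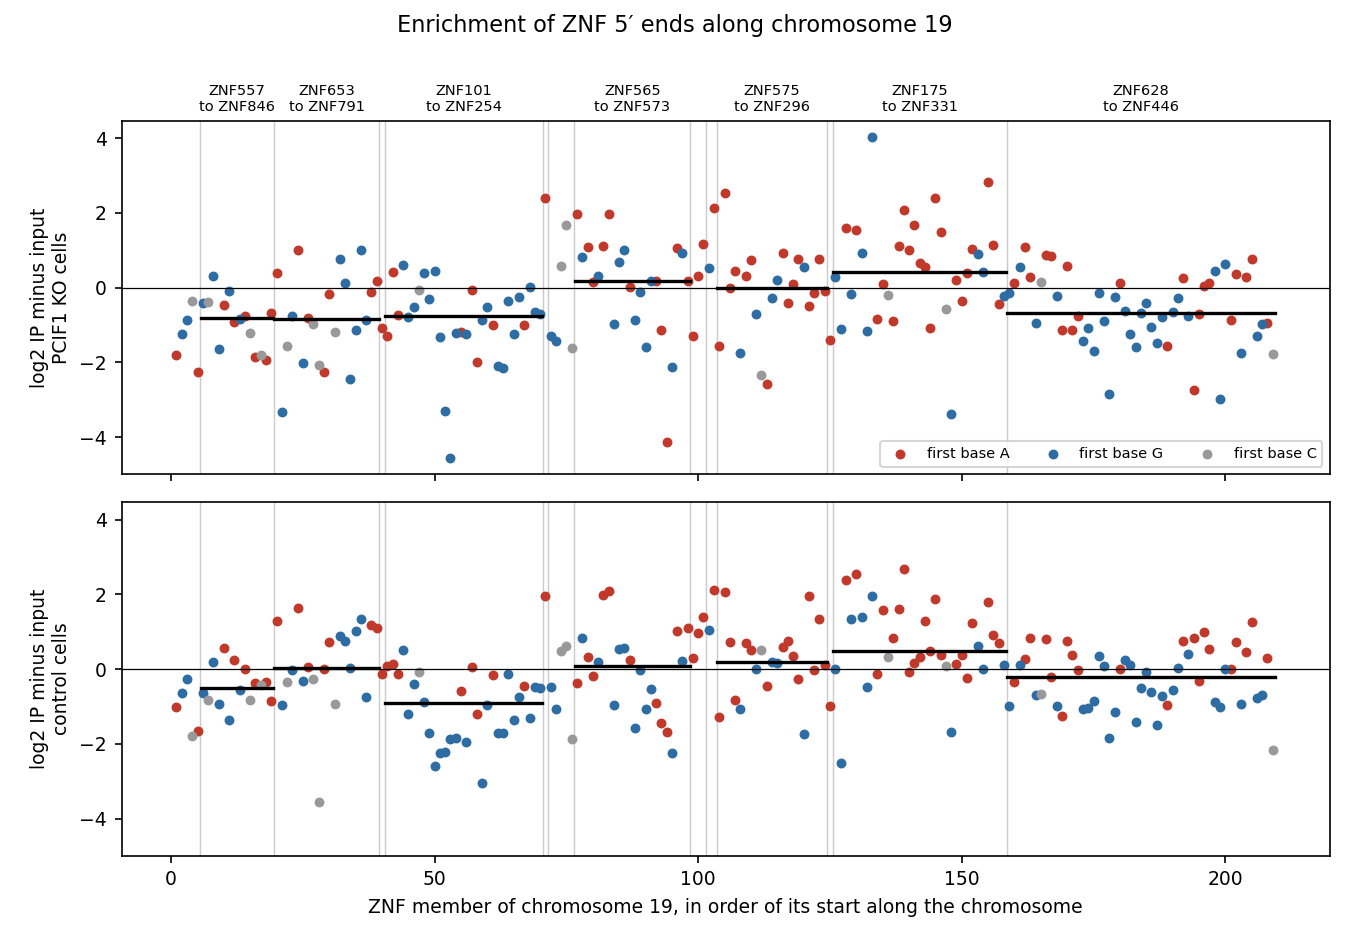
Log2 difference IP minus input (y axis) of the 209 chromosome 19 members in order of their starts (x axis), in KO cells above and control cells below, coloured by first base. Grey lines separate runs, black bars give the median of each run with at least 14 members, and the run from ZNF101 to ZNF254 has medians of -0.76 in KO cells and -0.92 in control cells.

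The run from ZNF175 to ZNF331 had the highest medians of the runs with at least 14 members. Of its 33 members, 10 were higher and 3 lower in KO cells (median 0.43). In control cells, 10 were higher and 1 lower (median 0.49). Over all genes, 28.4% were called higher and 31.0% lower in KO cells, and 27.7% and 28.2% in control cells. The counts of higher members are thus near the shares over all genes, and those of lower members are below them. For this run the ribosomal protein centring gave 14 and 1 in KO cells and 27 and 0 in control cells. Its 21 A starts had medians of 1.004 in KO cells and 0.84 in control cells, against 0.06 in each genotype for its 10 G starts. ZNF480, a KRAB gene, gave 20.1, 23.9 and 18.3 CPM in KO IPs, 27.2, 33.8 and 32.7 CPM in the control IPs, 11.2, 9.201 and 8.45 CPM in KO inputs and 11.8, 9.62 and 9.34 CPM in control inputs. Each IP lay above each input, and the enrichment was 1.11 ± 0.18 in KO cells (adjusted p = 3.42e-05) and 1.603 ± 0.18 in control cells (adjusted p = 3.34e-07). ZNF468 was higher in KO IPs (1.49 ± 0.30, adjusted p = 0.000296) and had 0.38 ± 0.30 in control cells (adjusted p = 0.308), while its near-identical neighbour ZNF28 was higher in both (2.39 in KO and 1.88 in control cells). The count of 10 higher in control cells became 6 without control IP replicate 2, without control IP replicate 3 or without control input replicate 1. ZNF480, ZNF468, ZNF28 and, above, ZNF100 were picked as examples after their values were seen.

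In the run from ZNF653 to ZNF791 the genotypes differed in their counts. Of 20 members, 0 were higher and 8 lower in KO cells (median -0.84), and 6 were higher and 3 lower in control cells (median 0.04). Shares over all genes were 28.4% higher and 31.0% lower in KO cells, and 27.7% and 28.2% in control cells. For this run the ribosomal protein centring gave 4 higher and 3 lower in KO cells (median -0.26). In control cells it gave 10 higher and 1 lower. The medians of single libraries were -0.67, -0.93 and -0.77 in the KO IPs and 0.35, 0.30 and 0.16 in the control IPs, which do not overlap. Such separation was not particular to this run. It held in ZNF628 to ZNF446 (-0.80, -0.57 and -0.59 in KO, -0.13, -0.22 and -0.15 in control IPs). In ZNF557 to ZNF846 the medians were -0.97, -0.79 and -0.76 in KO and -0.55, -0.10 and -0.46 in control IPs. Members elsewhere had -0.23, -0.36 and -0.17 in KO and -0.09, -0.14 and -0.12 in control IPs. In the run from ZNF653 to ZNF791 the difference of enrichment was negative for 19 of 20 members, with a median of -0.89. Of these, 4 passed the test, and the ribosomal protein centring gave a median of -1.44. In ZNF557 to ZNF846, 4 of 14 members were called negative and 1 positive (median -0.55). In ZNF628 to ZNF446, 8 of 51 were called negative and 3 positive (median -0.34). Over all genes, 15.8% were called negative and 13.0% positive, so the 8 of 51 lie near the share over all genes. ZNF791, a KRAB gene, gave 24.5, 23.4 and 28.05 CPM in KO IPs, 56.6, 57.2 and 54.8 CPM in the control IPs, 24.96, 17.9 and 25.3 CPM in KO inputs and 26.9, 25.7 and 26.3 CPM in control inputs. The control IPs stood above all 9 other libraries, and the difference was -0.93 ± 0.21 (adjusted p = 0.00199). ZNF490, whose start lies 107 bases away on the other strand, had -1.29 ± 0.44 (adjusted p = 0.0332), and since strand handling in the counting is not given, reads of this pair cannot be told apart. These members were also picked after their values were seen. The 6 higher in control cells became 3 without control IP replicate 3 or control input replicate 2, and the 8 lower in KO cells became 5 without KO IP replicate 2 or KO input replicate 3.

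Of the other large runs, ZNF628 to ZNF446 had 5 of 51 members higher and 25 lower in KO cells (median -0.68), and 6 higher and 14 lower in control cells (median -0.22). ZNF557 to ZNF846, with 14 members, had 0 higher and 7 lower in KO cells and 0 higher and 5 lower in control cells. ZNF565 to ZNF573, with 22 members, had 5 higher and 3 lower in KO cells and 5 higher and 2 lower in control cells. ZNF575 to ZNF296, with 21 members, had 4 higher and 3 lower in KO cells and 2 higher and 2 lower in control cells. Shares over all genes were 28.4% higher and 31.0% lower in KO cells, and 27.7% and 28.2% in control cells. Centring on ribosomal protein mRNAs turned ZNF628 to ZNF446 to 14 higher and 10 lower in KO cells and 30 higher and 1 lower in control cells, and ZNF557 to ZNF846 to 1 higher and 4 lower in KO cells and 5 higher and 0 lower in control cells. It gave ZNF565 to ZNF573 10 higher and 2 lower in KO cells and 13 higher and 0 lower in control cells, and ZNF575 to ZNF296 5 higher and 2 lower in KO cells and 13 higher and 0 lower in control cells.

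Setting both genotypes' enrichments against each other asks whose 5′ ends the antibody collected differently without PCIF1. The difference of enrichment, KO minus control, was positive and past the test in 5 and negative in 19 of 209 chromosome 19 members, with a median of -0.30. Over all genes, 13.0% were called positive and 15.8% negative, 28.8% in all. The 3 KO and 3 control enrichments did not overlap for 84 of the 209 members, against 53.2% of all genes. Each was an IP minus the mean of its genotype's inputs, so the spread between inputs does not enter this overlap. Elsewhere 13 members were positive and 11 negative of 214, with a median of -0.12, and other coding genes had 1207 positive and 2373 negative of 11624, with a median of -0.18. Centring on ribosomal protein mRNAs turned the splits to 1 positive and 56 negative both on chromosome 19 and elsewhere. Centring each library on its median gave 13 positive and 11 negative elsewhere and 4 and 19 on chromosome 19. Among the scalings, the near-even split elsewhere was thus lost only under the ribosomal protein centring, but it also moved when single libraries were left out. The 5 positive on chromosome 19 became 3 without KO input replicate 1. The 11 negative elsewhere became 6 without KO input replicate 1 or control input replicate 2, 7 without control IP replicate 1 or 3, and 5 without control IP replicate 2. By first base, A starts on chromosome 19 had 1 positive and 11 negative (median -0.52) and G starts 2 positive and 7 negative (median -0.18). A starts elsewhere had 2 positive and 6 negative (median -0.29) and G starts 9 positive and 4 negative (median 0.04). Among other coding genes the medians were -0.37 for A starts and -0.06 for G starts. Of their A starts, 6.39% were called positive and 28.2% negative, and of their G starts 12.1% and 14.1%. On chromosome 19 the negative calls made up 11.2% of A starts and 7.45% of G starts, both lower shares than among other coding genes.

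**Figure D4:**
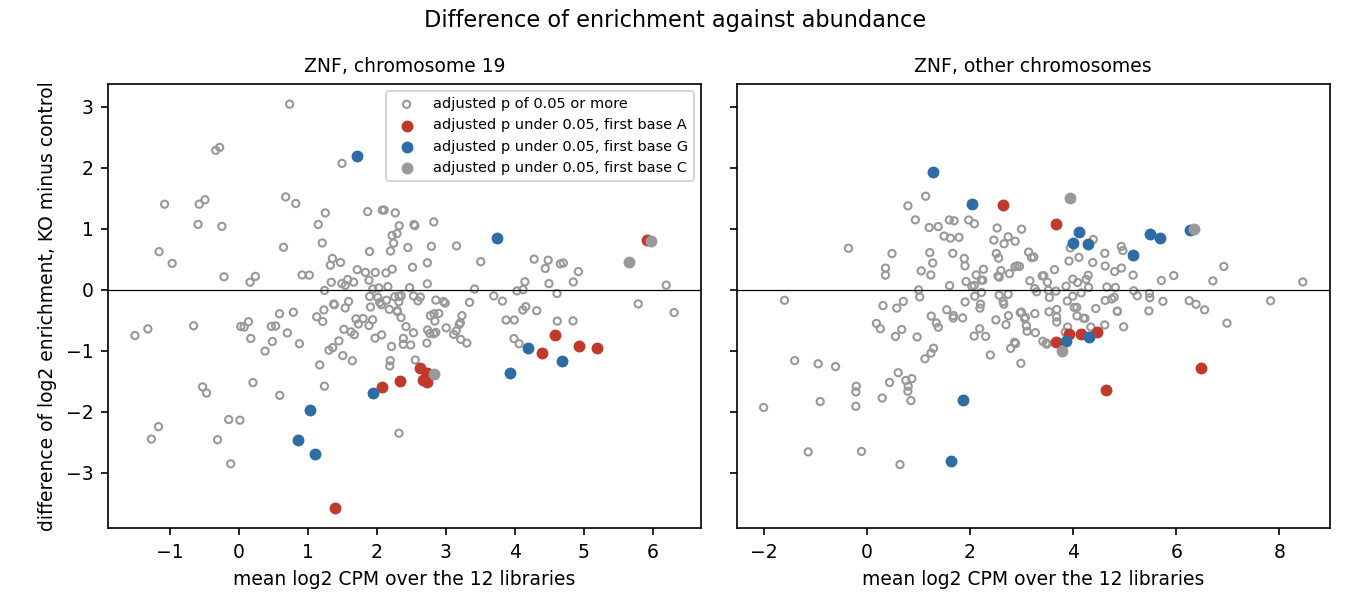
Difference of log2 enrichment, KO minus control (y axis), against the mean log2 CPM over 12 libraries (x axis) for members of chromosome 19 (left) and other chromosomes (right), with filled points for adjusted p under 0.05, coloured by first base. On chromosome 19, 19 of the 24 filled points lie below 0, and elsewhere 11 of 24.

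ZNF672, on chromosome 1 (248838210 to 248849517), had the most negative difference among the named members. It gave 13.7, 12.2 and 8.01 CPM in KO IPs, 34.7, 28.6 and 35.8 CPM in the control IPs, 33.00, 36.3 and 29.9 CPM in KO inputs and 30.6, 30.5 and 32.7 CPM in control inputs. The KO IPs were the only low libraries, and the difference was -1.65 ± 0.25 (adjusted p = 6.25e-05). ZNF655, on chromosome 7 (99558406 to 99576453), combined lower IPs with higher inputs. It gave 76.03, 67.2 and 69.8 CPM in KO IPs, 122, 126 and 123 CPM in the control IPs, 98.4, 101 and 99.4 CPM in KO inputs and 66.9, 76.8 and 69.8 CPM in control inputs, and the difference was -1.29 ± 0.13 (adjusted p = 1.03e-06). Neither pair of genotypes overlapped for ZNF655, in the IPs or in the inputs. ZNF629 (-0.85 ± 0.29) starts with A like both of these members, and ZNF621 (-1.01 ± 0.26) starts with C.

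On chromosome 19 the 4 most negative named members all start with A. ZNF71, a KRAB gene, gave 3.43, 4.87 and 2.86 CPM in KO IPs, 8.15, 10.2 and 8.89 CPM in the control IPs, 7.46, 7.31 and 9.42 CPM in KO inputs and 7.52, 5.499 and 7.88 CPM in control inputs. Its KO IPs lay below its control IPs without overlap, and the difference was -1.52 ± 0.39 (adjusted p = 0.00665). ZNF562 (-1.59 ± 0.51), ZNF121 (-1.49 ± 0.51) and ZNF616 (-1.48 ± 0.42) were the others, all with at most 14 reads in any KO IP. In the other direction stood ZNF865 (0.82 ± 0.18), ZNF628 (0.85 ± 0.28), ZNF581 (0.80 ± 0.17) and ZNF358 (0.46 ± 0.17). ZNF865 gave 119, 109 and 84.1 CPM in KO IPs, 59.9, 52.7 and 56.9 CPM in the control IPs, 49.6, 44.4 and 51.00 CPM in KO inputs and 42.5, 48.8 and 49.03 CPM in control inputs, so that the KO IPs were the highest libraries. ZNF616, ZNF581 and ZNF358 start inside another gene of their strand, so that their reads are uncertain. Centring on ribosomal protein mRNAs ended the calls of ZNF865, ZNF628 and ZNF581 and turned ZNF358 to -0.09. The call of ZNF358 was also lost when each library was centred on its median (0.43, limma, adjusted p = 0.0669).

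Elsewhere the positive end held ZNF277, which encodes a partner of the ribosomal protein RPS2. It gave 16.7, 20.5 and 17.2 CPM in KO IPs, 8.15, 7.08 and 6.35 CPM in the control IPs, 15.5, 22.2 and 21.8 CPM in KO inputs and 22.8, 20.2 and 23.3 CPM in control inputs. Only the control IPs stood below the rest, and the difference was 1.497 ± 0.27 (adjusted p = 0.00028). ZNF70 (1.40 ± 0.46), ZNF438 (1.38 ± 0.39) and ZNF18 (1.07 ± 0.28) followed, and these 3 calls ended under the ribosomal protein centring. Calls also depended on single libraries. ZNF121 was lost without KO IP replicate 1 or 3, KO input 1 or 3, control IP 2 or 3, or control input 2 or 3 (adjusted p up to 0.0892), and ZNF562 without KO input 2 or 3, control IP 2 or control input 3 (up to 0.0721). ZNF628 was lost without KO IP 3, KO input 1 or 3, control IP 2 or control input 2, and ZNF70 without KO input 2, control IP 3 or any 1 control input. ZNF629 was lost without KO IP 2, KO input 1 or 2, control IP 1 or 2, or control input 1 or 2, and ZNF358 without any 1 library other than KO IP 3 and KO input 3.

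The inputs ask which ZNF 5′ ends were more or less abundant in KO cells before any antibody step. In bulk samples, fewer cells with a transcript and less of it per cell cannot be told apart. On chromosome 19, 18 members were higher and 1 lower in KO inputs, and elsewhere 14 were higher and 2 lower. Over all genes, 5.56% were called higher and 5.67% lower, 11.2% in all, and other coding genes had 734 higher and 729 lower. KO and control inputs did not overlap for 44 of the 209 members, against 31.7% of all genes. The median input change was 0.14 on chromosome 19 and 0.09 elsewhere on the log2 scale, and the ribosomal protein centring gave 17 higher and 1 lower on chromosome 19 and 11 higher and 0 lower elsewhere. Of the 18 higher on chromosome 19, 15 hold a KRAB A box, and of the 14 higher elsewhere, 3 do, where 132 of all 209 members on chromosome 19 and 76 of all 214 elsewhere hold one. The counts rest on single libraries. On chromosome 19 the higher calls became 11 without KO input replicate 2 or control input replicate 1 and 10 without control input replicate 3, the lower call was lost without KO input replicate 1 or 3 or any 1 control input, and elsewhere the higher calls became 7 without KO input replicate 3 and 9 without control input replicate 2 or 3. The 2 lower elsewhere became 0 or 1 without any 1 input or any 1 control IP.

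The run from ZNF101 to ZNF254 held 7 of the 18. Of its 30 members, 28 had a positive input change, and the median was 0.59. The 17 other genes of the table that start between ZNF101 and ZNF254, of which 11 are lncRNAs and 5 pseudogenes, had a median of 0.56, with 3 higher and 0 lower. Those with a mean log2 CPM above 3 changed less, by 0.16 to 0.34. Among them ENSG00000283201, ENSG00000269107 and ENSG00000284428 had near-equal abundance (3.97, 3.97 and 4.03) and change (0.19, 0.18 and 0.16). Whether these count separate reads is uncertain. The 26 coding genes within 1 Mb before ZNF101 had a median of -0.09, with 0 higher and 1 lower. Summed over the 30 members, the inputs held 267, 261 and 253 CPM in KO cells and 178, 155 and 173 CPM in control cells, which do not overlap. Whether the chromosomal stretch has another copy number in the KO cells was not tested. The count of 7 became 4 without KO input replicate 2, control input replicate 1 or control input replicate 3.

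ZNF486 and ZNF43, KRAB genes of this run, had the largest changes among its named members. ZNF486 (20167214 to 20200488) gave 8.32, 11.4 and 14.6 CPM in KO inputs and 1.34, 2.98 and 3.21 CPM in control inputs, a change of 2.21 ± 0.38 (adjusted p = 0.000634). Its IPs moved the same way, with 17.2, 14.6 and 12.6 CPM in KO IPs and 1.63, 1.57 and 0.762 CPM in control IPs. ZNF43 gave 16.6, 14.9 and 11.7 CPM in KO inputs and 4.299, 4.35 and 7.005 CPM in control inputs, a change of 1.47 ± 0.32 (adjusted p = 0.00432). KO and control libraries did not overlap for either gene, in the inputs or in the IPs. ZNF91, which represses SVA retrotransposons, gave 23.8, 31.4 and 28.6 CPM in KO inputs and 17.5, 19.02 and 20.4 CPM in control inputs, a change of 0.55 ± 0.16 (adjusted p = 0.0326). ZNF682 rose by 1.18 ± 0.37 (adjusted p = 0.0459), a call lost without KO input replicate 1 or 2, control IP 1 or any 1 control input (adjusted p up to 0.178).

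**Figure D5:**
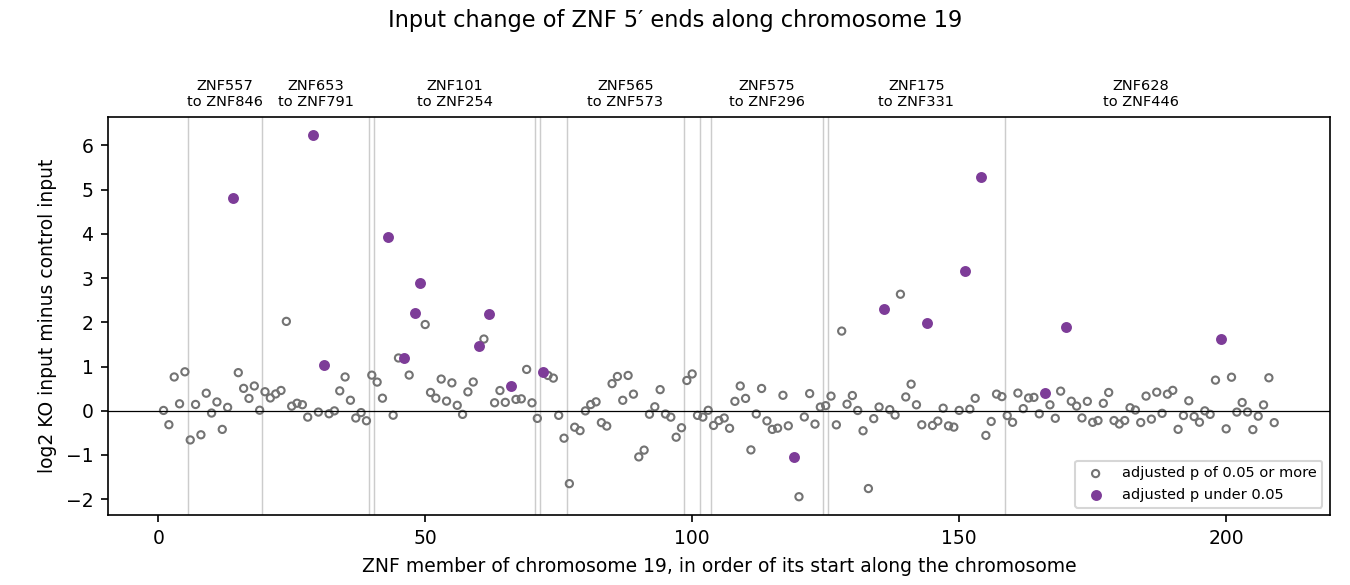
Log2 difference KO input minus control input (y axis) of the 209 chromosome 19 members in order of their starts (x axis), with filled points for adjusted p under 0.05 and grey lines between runs. In the run from ZNF101 to ZNF254, 28 of 30 points lie above 0 and 7 are filled, and 18 of the 19 filled points on the chromosome lie above 0.

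Outside that run, ZNF470 rose by 1.90 ± 0.33 in KO inputs (adjusted p = 0.000604) and ZNF227 fell (-1.04 ± 0.30, adjusted p = 0.0272), a call lost without KO input replicate 1 or 3 or any 1 control input. On other chromosomes ZNF185, which encodes an actin-associated LIM domain protein and no C2H2 fingers, gave 8.03, 11.1 and 9.74 CPM in KO inputs and 0.806, 1.37 and 1.75 CPM in control inputs. Its change was 2.86 ± 0.36 (adjusted p = 2.22e-05). ZNF853 gave 22.1, 17.6 and 18.5 CPM in KO inputs and 2.69, 2.06 and 3.21 CPM in control inputs, a change of 2.85 ± 0.32 (adjusted p = 5.19e-06). For both genes every KO input lay above every control input. ZNF594 (1.31 ± 0.20) and ZNF32 (1.26 ± 0.25) also rose. ZNF519, on chromosome 18, fell (-1.08 ± 0.34, adjusted p = 0.0481). Its call was lost under both other scalings and without any 1 input or any 1 control IP. Of 170 other coding genes on chromosome 18, 52 were higher and 32 lower in KO inputs.

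Some members had reads in KO inputs and 0 reads in all 3 control inputs and all 3 control IPs. ZNF844, a KRAB gene of the run from ZNF653 to ZNF791, had 20, 22 and 16 reads in the KO inputs, which is at least 21.7-fold higher in CPM than a floor of 3 reads over the control inputs (limma, adjusted p = 6.61e-05). ZNF677 had 7, 17 and 8 reads (at least 11.97-fold higher, adjusted p = 0.000172) and ZNF560 had 8, 7 and 6 reads (at least 7.86-fold higher, adjusted p = 0.00146), both on chromosome 19. Elsewhere ZNF718 had 7, 11 and 11 reads (at least 10.8-fold higher) and ZNF141, also on chromosome 4, had 4, 9 and 4 reads (at least 6.36-fold higher). ZNF454, on chromosome 5, had 5, 5 and 5 reads (at least 5.61-fold higher). ZNF844 starts inside another gene of its strand. The floor covers counting error only. These 6 members lie below the level set for naming and were chosen after their values were seen.

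Of the 23 ZNF genes listed as known for binding or repressing repeats, 19 were measured. In KO cells 0 were higher and 5 lower in the IP (median -0.71), and in control cells 2 were higher and 7 lower (median -0.32), while the ribosomal protein centring gave medians of -0.14 and 0.80. ZNF91 had -0.24 ± 0.16 in KO and -0.74 ± 0.16 in control cells, and ZNF93, which represses LINE-1 elements, had -0.79 ± 0.47 and -1.19 ± 0.47. ZNF586 was lower in KO IPs (-0.76 ± 0.16) and higher in control IPs (0.41 ± 0.16), a difference of -1.17 ± 0.22 (adjusted p = 0.000522). In KO inputs 3 of the 19 were higher and 0 lower, namely ZNF141, ZNF43 and ZNF91. Over all genes, 28.4% were called higher and 31.0% lower in KO IPs, and 27.7% and 28.2% in control IPs. In KO inputs 5.56% of all genes were higher and 5.67% lower.

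Of 26 ZNF genes listed for other roles, 25 were measured, with 7 higher and 8 lower in KO IPs and 9 higher and 7 lower in control IPs. These counts are near the shares over all genes, 28.4% higher and 31.0% lower in KO IPs and 27.7% and 28.2% in control IPs. The ribosomal protein centring gave 12 higher and 1 lower in KO cells and 21 and 1 in control cells. ZNF148, a transcription factor gene with an A start, had 1.43 ± 0.11 in KO and 1.28 ± 0.11 in control cells, and the oncogene ZNF217, also with an A start, had 1.28 ± 0.22 and 1.11 ± 0.22. ZNF24 (1.09 ± 0.13 in KO and 0.24 ± 0.13 in control cells) and ZNF292 (1.84 ± 0.22 and 0.89 ± 0.22) start with G, and their differences of 0.85 ± 0.19 and 0.95 ± 0.31 passed (adjusted p = 0.00196 and 0.0279). ZNF593, linked to assembly of the large ribosomal subunit, had -0.34 ± 0.11 and -0.49 ± 0.11, which turn positive under the ribosomal protein centring. ZNF207, which encodes a partner of the spindle checkpoint protein BUB3, had 0.32 ± 0.16 (adjusted p = 0.0853) and 0.87 ± 0.16 (adjusted p = 8.6e-05).

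All 18 listed partners of KRAB proteins were measured. In KO cells 10 were higher and 4 lower in the IP (median 0.75), and in control cells 8 were higher and 5 lower (median 0.34). Over all genes, 28.4% were called higher and 31.0% lower in KO cells, and 27.7% and 28.2% in control cells. The ribosomal protein centring gave 14 partners higher and 4 lower in KO cells and 15 and 3 in control cells. TRIM28, the corepressor that binds KRAB domains, was lower in IPs of both genotypes (-1.75 ± 0.11 in KO and -1.72 ± 0.11 in control cells), as was the histone methyltransferase gene SETDB1 (-2.15 ± 0.27 and -2.33 ± 0.27). The difference was positive and past the test for 6 and negative for 2, while the ribosomal protein centring gave 2 positive and 6 negative. On the deposited scaling MORC2 (1.91 ± 0.37) and the heterochromatin protein gene CBX3 (1.42 ± 0.17) rose most, and UHRF1 (-0.86 ± 0.21) and CHD4 (-0.47 ± 0.14) fell. In KO inputs 0 partners were higher and 1, ATRX, was lower (-0.45 ± 0.13), a call lost under both other scalings. The 35 measured genes with ZFP, ZSCAN or ZKSCAN symbols, most of them C2H2 genes too, had 13 higher and 11 lower in KO IPs and 9 higher and 9 lower in control IPs, which became 15 and 5 in KO cells and 22 and 1 in control cells with ribosomal protein centring. They had 3 higher and 3 lower in KO inputs on the deposited scaling, and 3 higher and 1 lower under both other scalings.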

How the data were processed

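The authors deposited log2 CPM values (log2 of reads scaled to a common library total) for 16009 start regions in 12 second-stage libraries. The submitters' processing notes name featureCounts, edgeR 3.12.1, R 3.3.3, deepTools 3.0.2, SAMtools 1.7, HISAT2 2.0.4 and hg38, with no role or order. How reads were assigned (window, strand, multiple mapping) is not given there. Column names gave the group but not the labelled sample, and replicate numbers are those of the columns. The values step in whole reads (100% whole within 0.01), so CPM and reads were recovered from them.

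Enrichment (IP minus input), the KO minus control difference of enrichment and the input change were fitted with limma 3.58.1 in R 4.3.3 (trend, 4 group means, all 12 libraries), with Benjamini-Hochberg adjustment over all 16009 genes and a threshold of 0.05. Estimates are log2 ± SE. Gene IDs were matched to GENCODE 44 (15903 matched), which also gave starts, sequences and translated proteins. Protein features were planned from RefSeq proteins and were taken from GENCODE instead. The fit was tested on simulated reads with a fixed spread, in which only better covered genes were changed. That test does not cover weakly covered members. Members and lists were chosen with earlier results of these data known. Named genes average at least 2 in log2 CPM and are the 4 largest called changes each way per contrast, with no overlap between the libraries compared, on chromosome 19 and elsewhere, plus the 5 most abundant in the inputs and listed genes. Alternatives were other scalings, filters and weights, log2(CPM + 1), the groups compared alone, a replicate block, and each library left out. The SEs come from the limma fit and reflect the spread between libraries, while floors cover counting error only.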

Additional observations from a re-analysis of the deposited data

Results flagged for a closer look

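These members stood out because their enrichment over input differed between KO and control cells by the test of the difference itself (limma, adjusted p under 0.05 over all genes, KO minus control, log2). On chromosome 19 the difference was 0.85 for ZNF628, 0.82 for ZNF865, 0.80 for ZNF581 and 0.46 for ZNF358, and it was -1.59 for ZNF562, -1.52 for ZNF71, -1.49 for ZNF121 and -1.48 for ZNF616. On other chromosomes it was 1.5 for ZNF277, 1.40 for ZNF70, 1.38 for ZNF438 and 1.07 for ZNF18, and it was -1.65 for ZNF672, -1.29 for ZNF655, -1.01 for ZNF621 and -0.85 for ZNF629. Under centring on ribosomal protein mRNAs the calls of ZNF628, ZNF865, ZNF581, ZNF70, ZNF438 and ZNF18 ended, and ZNF358 turned to -0.09. The call of ZNF358 was also lost when each library was centred on its median. The part of scaling and of the lower depth of the KO IPs in these differences was not tested.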

How the results depend on the processing

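Of 58 named results, 58 kept their direction and call with log2(CPM + 1), with voom weights, with only genes of mean log2 CPM of at least 2, and with the replicate block. Centring on ribosomal protein mRNAs ended 8 calls and turned 1, ZNF358, whose difference became -0.0901 (adjusted p = 0.764). Centring each library on its median ended 2 calls, the difference of ZNF358 and the input change of ZNF519. The share of members called for the difference of enrichment, 11.5% on chromosome 19 and 11.2% elsewhere, became 27.3% and 26.6% with the ribosomal protein centring. With only genes of mean log2 CPM of at least 2, which leaves fewer members, it became 20.0% and 17.8%, and the cause was not tested. Leaving out 1 library at a time, the share called for the input change ranged over 4.78 to 9.57% on chromosome 19 and 3.27 to 8.88% elsewhere. Between genotypes, same-numbered columns did not deviate together in every pair (the lowest correlation was -0.0754, KO input 2 with control input 2). Within a genotype, same-numbered IP and input columns correlated positively, by 0.20, 0.07 and 0.24 in KO and 0.16, 0.09 and 0.23 in control cells. The main fit took no pairs, so a link between IP and input of the same number entered only the replicate block. With the replicate block, the shares called on chromosome 19 were 46.9% for KO enrichment, 39.2% for control enrichment, 12.4% for the difference and 10.5% for the input change. Elsewhere they were 58.9%, 52.3%, 14% and 8.41%. With only genes of mean log2 CPM of at least 2, chromosome 19 members lower in the IP became 43 of 67 in KO cells and 31 of 48 in control cells, and those higher in KO inputs became 9 of 18. With that filter, the run from ZNF101 to ZNF254 had 7 in place of 16 lower in control cells and 4 in place of 7 higher in KO inputs, the run from ZNF653 to ZNF791 4 in place of 8 lower in KO cells, and the run from ZNF175 to ZNF331 3 in place of 10 higher in control cells. With voom weights, the input counts became 22 in place of 14 higher elsewhere and 11 in place of 7 in the run from ZNF101 to ZNF254, and positive differences on chromosome 19 became 8 in place of 5. Depth was lowest in the KO IPs, with a median of 8 reads per chromosome 19 member, and its part in the calls was not tested.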
